A study of Mus musculus with 12 samples.

Results

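The genes described here carry glucose into the cell, break it down to pyruvate and lactate, pass pyruvate to the mitochondrion, or run the pentose phosphate side branch. They were listed by name from pathway knowledge, with earlier results of these data known, and are 37 of the 54232 gene rows of a count table from 12 mouse RNA sequencing libraries. All 37 matched a row and all 37 passed the filter on low counts, which left 15679 genes to test. By role they are 2 glucose carriers, 10 genes of the hexose phosphate and triose steps, 6 of lower glycolysis, 4 of lactate, 8 of pyruvate entry, the regulator Hif1a, and 6 of the pentose phosphate pathway. After 24 h of stimulation 26 of the 37 were lower in the Ddx55-KO libraries than in WT, and Ldhb, Pdk2 and Pgls were higher. Of all genes tested, 20.7% were lower and 17.9% higher at that time. The calls of Ldhb, Pdk2 and Pgls each rested on single libraries. Before stimulation 2 of the 37 were higher in KO and 1 was lower, beside 4.63% and 1.07% of all genes tested.

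Glycolysis converts glucose to pyruvate in the cytosol, with a small yield of ATP and with intermediates that feed nucleotide, lipid and amino acid synthesis. Lactate dehydrogenase turns pyruvate into lactate and so restores the NAD that the pathway consumes, monocarboxylate carriers export the lactate, and pyruvate dehydrogenase sends pyruvate into the mitochondrion instead. The pentose phosphate pathway branches off at glucose 6-phosphate and yields NADPH and ribose phosphate for nucleotides. Naive T cells use little glucose, and stimulation through the antigen receptor and CD28 is known to raise glucose uptake, glycolysis and lactate export as the cells grow, in part through the transcription factors Myc and HIF-1.

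The study took naive CD4+ T cells from spleen and pLN (as the labels abbreviate that tissue) of WT and Ddx55-KO mice. Ddx55 is a DEAD-box RNA helicase known for its part in the making of the large ribosomal subunit. The cells were stimulated on plates coated with anti-CD3 at 5 ug/ml and anti-CD28 at 2.5 ug/ml, and total RNA was taken at 0, 8 and 24 h. This gives 6 groups of 2 libraries each, WT at 0, 8 and 24 h and Ddx55-KO at 0, 8 and 24 h, and stimulation is the only treatment named. The labels give no age, no account of how or in which cells Ddx55 was deleted, and no word on whether each library had its own mouse. The p-values below therefore measure only the spread between these libraries, which may be technical.

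The libraries held 16810375 to 19126498 counts in genes. Ddx55 itself was at 45.3 to 68.7 CPM (counts scaled to library size) in the 6 WT libraries and at 14.4 to 19.5 CPM in the 6 KO libraries, so the groups did not overlap and some Ddx55 transcript was counted in every KO library. The 19 T cell genes used as an identity check (such as Cd3e, Cd4 and Lck) had counts in every library. Their summed level was 11995 to 12197 CPM in WT and 10484 to 11421 CPM in KO at 0 h. It was 5800 to 6527 CPM in WT and 7230 to 7465 CPM in KO at 24 h. Markers of other cell types were not at the same level in the 2 genotypes. The 14 basophil and mast cell markers summed to 13.4 to 52.8 CPM over all WT libraries. In KO they summed to 341 and 853 CPM at 0 h, 148 and 447 CPM at 8 h and 206 and 718 CPM at 24 h, the higher value each time in the library numbered 2. The 16 neutrophil and granulocyte progenitor markers summed to 13.7 to 58.4 CPM in WT and 525 to 537 CPM in KO at 0 h. At 24 h the sums were 0.704 to 0.808 CPM in WT and 23.1 to 89.01 CPM in KO. Ly6g had 0 counts in every KO library and Ltf in both of 24 h. The 9 eosinophil markers summed to 3.37 to 20.4 CPM in WT and 201 to 225 CPM in KO at 0 h. The 10 CD8 T and NK cell markers summed to 30.7 to 33.7 CPM in WT and 110 to 172 CPM in KO at 24 h. Most of that KO sum was Eomes (95.7 and 45.6 CPM) and Nkg7 (52.6 and 45.7 CPM), while Cd8a was at 1.198 and 0.701 CPM in KO and 1.67 and 1.19 CPM in WT. The 10 B cell markers summed to 233 to 248 CPM in WT and 84.9 to 90.8 CPM in KO at 24 h, nearly all of it Ighm (227 and 243 CPM in WT, 86.3 and 78.6 CPM in KO). Of the 5 B cell markers tested, 2 were lower and 0 higher in KO at 24 h. Their log2 differences ran from -2.21 to 1.47, with a median of 0.0059. The part of such cells in the results below was not tested.

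The sequences upstream of 5 members whose levels are described below are shown because HIF-1 is known to bind the core letters ACGTG or GCGTG, and Myc the E-box CACGTG, which holds ACGTG on both strands. Each is the 250 bases before a RefSeq start of the gene on the GRCm38.p6 build, in lower case, with every ACGTG or GCGTG match on either strand (CACGT or CACGC on the opposite strand) in capitals. Ldha lies at chr7:46845554-46845803 on the plus strand and had 5 ACGTG matches, counting both strands, of which 4 come from its 2 CACGTG sites. Ldhb lies at chr6:142507958-142508207 on the minus strand and had 1 GCGTG match and no ACGTG. Slc16a1 lies at chr3:104638414-104638663 on the plus strand, with 2 ACGTG matches from 1 CACGTG and 2 GCGTG matches. Pgk1 lies at chrX:106186850-106187099 on the plus strand and Hk2 at chr6:82774455-82774704 on the minus strand, each with 2 ACGTG matches and no CACGTG. Ldha has a second start, not printed, whose window had 0 ACGTG and 1 GCGTG matches. The window of Tpi1 had neither, and of the 2 windows of Pdk2 1 had 2 ACGTG matches from 1 CACGTG. The windows of Gapdh, Gpi1, Pfkl, Eno3 and Tkt, also lower in KO at 24 h, had no ACGTG. The 5 printed members were picked by name with no fixed rule, so they do not show how common the matches are. Shares over all member windows follow the sequences.
Ldha: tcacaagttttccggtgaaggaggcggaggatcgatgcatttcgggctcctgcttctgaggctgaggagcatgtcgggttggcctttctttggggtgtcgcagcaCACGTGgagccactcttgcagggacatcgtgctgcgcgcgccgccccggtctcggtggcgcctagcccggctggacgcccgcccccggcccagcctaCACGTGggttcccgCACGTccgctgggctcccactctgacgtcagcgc
Ldhb: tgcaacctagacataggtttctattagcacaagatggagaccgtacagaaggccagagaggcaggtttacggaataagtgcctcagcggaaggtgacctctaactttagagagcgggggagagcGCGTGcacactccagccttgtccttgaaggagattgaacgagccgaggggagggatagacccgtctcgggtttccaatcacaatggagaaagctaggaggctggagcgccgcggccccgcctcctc
Slc16a1: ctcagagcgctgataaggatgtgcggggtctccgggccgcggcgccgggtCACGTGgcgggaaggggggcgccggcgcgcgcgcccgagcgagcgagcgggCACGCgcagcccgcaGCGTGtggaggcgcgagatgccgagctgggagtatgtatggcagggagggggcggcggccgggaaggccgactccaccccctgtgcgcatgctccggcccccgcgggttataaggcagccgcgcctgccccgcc
Pgk1: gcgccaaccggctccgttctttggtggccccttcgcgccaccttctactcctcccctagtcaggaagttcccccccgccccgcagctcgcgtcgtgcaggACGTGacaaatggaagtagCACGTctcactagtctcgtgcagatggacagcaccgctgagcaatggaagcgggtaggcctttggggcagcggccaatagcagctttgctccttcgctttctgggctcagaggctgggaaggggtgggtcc
Hk2: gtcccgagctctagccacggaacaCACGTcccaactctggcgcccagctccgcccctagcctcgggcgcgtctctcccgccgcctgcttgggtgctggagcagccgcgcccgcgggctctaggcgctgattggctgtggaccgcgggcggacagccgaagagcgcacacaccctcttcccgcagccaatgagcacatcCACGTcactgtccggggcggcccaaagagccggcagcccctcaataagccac
Of the 37 members, 36 had an entry, with 52 starts in all (Slc2a3 is named only). ACGTG was present in 34.6% of these 52 windows, in 21.3% of the 13321 windows of genes tested and in 16.6% of all 32851 windows. GCGTG was present in 57.7%, 43.2% and 28.2% of the same sets, and CACGTG in 11.5%, 8.15% and 6.02%. The mean GC content of the 3 sets was 60.8%, 59.3% and 53.2%. These are matches of letters, given as a description with no test.

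Stimulation moved nearly all of the members in both genotypes, and the summed count of the 37 genes grew further in WT than in KO. They made up 0.498% and 0.499% of gene counts in the 2 WT libraries of 0 h, 0.867% and 0.845% at 8 h and 1.35% in each at 24 h. In KO they made up 0.557% and 0.516% at 0 h, 0.741% and 0.661% at 8 h and 0.630% and 0.646% at 24 h. The KO share at 24 h was thus below both WT shares of 8 h and of 24 h, while at 0 h it was above both WT shares. In bulk RNA, fewer cells of a type and less RNA per cell cannot be told apart.

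**Figure D1:**
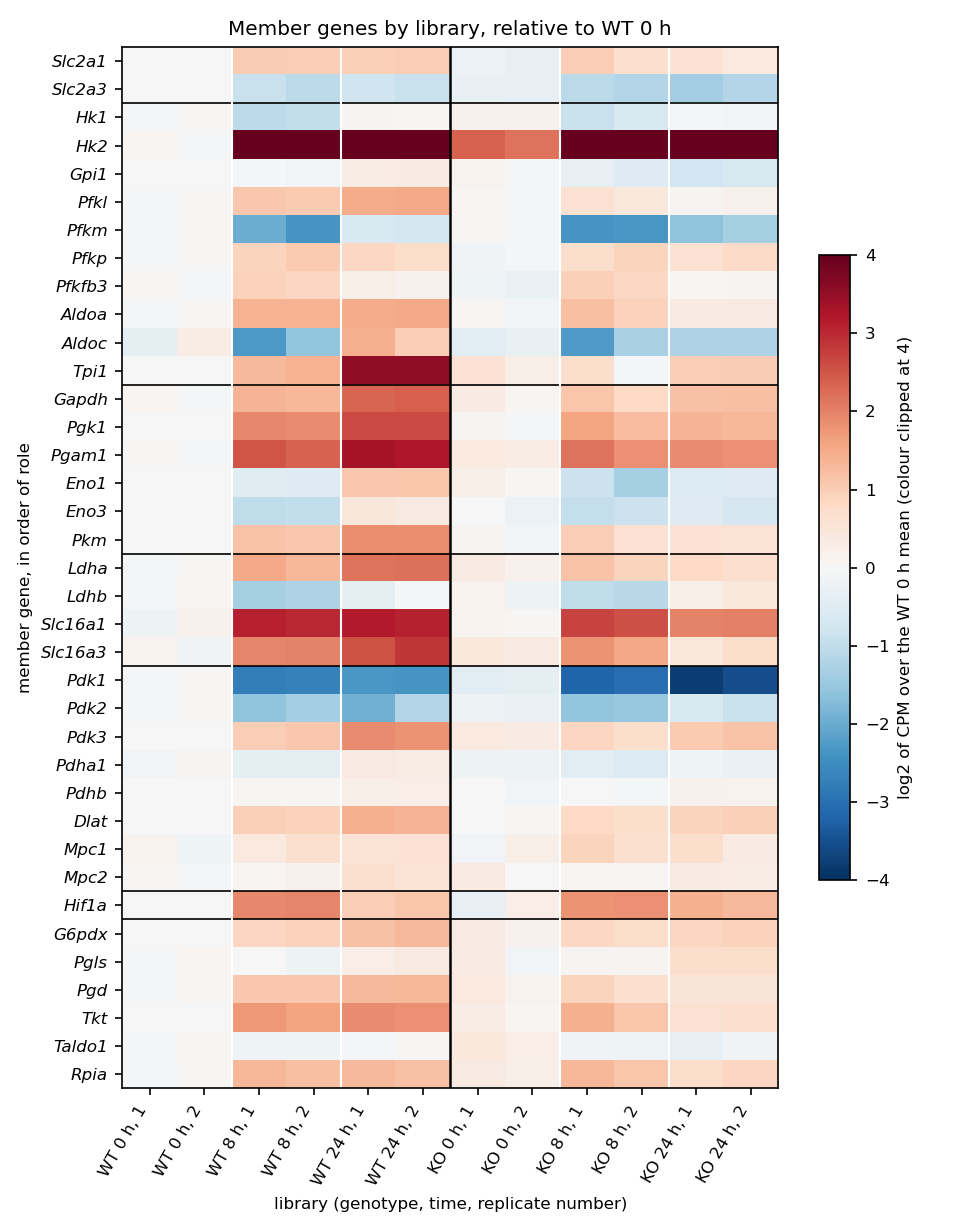
Level of each of the 37 genes (rows, ordered by role, with lines between roles) in each of the 12 libraries (columns), as the log2 of CPM over the WT mean of 0 h, with colour limited at 4. Most rows are darkest red in the WT libraries of 24 h and paler in the KO libraries of 24 h, while Hk2 is already red in the KO libraries of 0 h and Pdk1 is blue in all stimulated libraries.

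From 0 to 8 h, 22 of the 37 members rose and 10 fell in WT (edgeR quasi-likelihood test, Benjamini-Hochberg adjusted p under 0.05), where 28.3% of all genes tested rose and 33.6% fell. In KO, 21 rose and 12 fell, against 28.6% and 32.9% of all genes. The median log2 change of the members was 0.94 in WT and 0.51 in KO, beside medians of -0.15 and -0.10 over all genes tested, a shift that individual values should be read against. The 2 genotypes share no library in this interval, and 21 members rose in both and 10 fell in both. The share of all genes tested that moved the same way in both genotypes was not counted, so these joint counts have no background beside them. Hk2, the inducible hexokinase that traps glucose in the cell, rose 85.1-fold in WT and 12.2-fold in KO. These folds start from low and unequal 0 h means of 1.28 CPM in WT and 6.16 CPM in KO. The 8 h means of Hk2 were 109.65 CPM in WT and 74.97 CPM in KO. Slc16a1, the lactate carrier MCT1, rose 8.34-fold in WT and 5.86-fold in KO, and the mutase gene Pgam1 rose 5.38-fold and 3.17-fold. Tpi1 (triose phosphate isomerase) was the only member that passed the threshold upward in WT and not in KO. Its log2 change was 1.34 (SE 0.20, adjusted p = 0.000201) in WT and -0.04 (SE 0.20, adjusted p = 0.883) in KO. The members that fell in both were Slc2a3, Hk1, Pfkm, Aldoc, Eno1, Eno3, Ldhb, Pdk1, Pdk2 and Pdha1. Among them Pdk1, a kinase that holds pyruvate dehydrogenase inactive, had log2 changes of -2.73 in WT and -2.72 in KO.

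From 8 to 24 h, 23 members rose and 2 fell in WT, against 24% and 19.3% of all genes tested, while in KO 8 rose and 11 fell, against 18.9% and 15.6%. The members' median log2 change was 0.46 in WT and -0.08 in KO, with medians of 0 and 0.02 over all genes. The balance in KO rested on single libraries: 9 rose and 7 fell without KO_8h replicate 1, 5 and 14 without KO_8h replicate 2, 5 and 8 without KO_24h replicate 1, and 8 and 7 without the 3 KO libraries numbered 1. Each of these comparisons shares its 8 h libraries with the one from 0 to 8 h in the same genotype. Of the 23 members that rose in WT, 7 rose in KO (Hk1, Pfkm, Tpi1, Eno1, Ldhb, Pdk3 and Pgls), 12 did not pass the threshold in KO and 4 fell in KO (Gpi1, Pfkl, Slc16a3 and Pdk1). How all genes that rose in WT were split in KO was not counted. A further 5 fell in KO and did not pass in WT: Slc2a1, Aldoa, Slc16a1, Tkt and Rpia. Pfkfb3, which makes the activator of phosphofructokinase, and Hif1a fell in both, and Pdk2 rose in KO and did not pass in WT.

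Before stimulation the genotypes differed at 3 members: Hk2 and Taldo1 were higher in KO and Pdk1 was lower. Over all genes tested 4.63% were higher and 1.07% lower at 0 h, and the members' median log2 difference was 0.05 beside -0.03 over all genes. Hk2 was at 1.36 and 1.204 CPM at 0 h, 122 and 97.6 at 8 h and 163 and 142 at 24 h in WT. Hk2 in KO was at 6.61 and 5.72, 82.7 and 67.3, and 103 and 85.5 CPM at the same times. Hk2 was the lowest member per length in WT at 0 h, with all KO values above all WT values at that time and below them at 8 and 24 h. The log2 difference at 0 h was 2.26 (SE 0.24, adjusted p = 0.000152), and it passed the threshold under all 21 alternatives tried. In the KO libraries of 0 h numbered 1 and 2, the basophil and mast cell marker sum was 341 and 853 CPM, the neutrophil sum 537 and 525 CPM, the monocyte, macrophage and dendritic cell sum 110 and 39.96 CPM and the CD8 T and NK cell sum 305 and 177 CPM, each above WT. Their part in the level of Hk2 was not tested.

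Taldo1, the transaldolase of the non-oxidative pentose phosphate branch, was at 127 and 139 CPM at 0 h, 119 and 118 at 8 h and 125 and 137 at 24 h in WT. Taldo1 in KO was at 179.8 and 160.4, 122 and 119, and 106 and 122 CPM at the same times. Its KO values were above WT at 0 h, with a log2 difference of 0.36 (SE 0.10, adjusted p = 0.0465), and the call was lost under 7 of 21 alternatives, among them leaving out WT_0h replicate 1, WT_0h replicate 2 or KO_0h replicate 1. Pdk1 was at 438 and 463 CPM at 0 h, 65.7 and 69.97 at 8 h and 89.3 and 87.7 at 24 h in WT. Pdk1 in KO was at 333 and 346, 49.01 and 53.99, and 32.6 and 38.2 CPM at the same times. Its KO values were below its WT values at every time, with log2 differences of -0.41 (SE 0.09, adjusted p = 0.0169) at 0 h, -0.40 (SE 0.10, adjusted p = 0.044) at 8 h and -1.32 (SE 0.10, adjusted p = 1.1e-07) at 24 h. The 0 h call of Pdk1 was lost under 4 alternatives (without either WT_0h library, without KO_0h replicate 1, and with 0 h libraries alone) and the 8 h call under 12. The count of 3 members was 1 without either WT_0h library or without KO_0h replicate 1, 5 without KO_0h replicate 2 or KO_8h replicate 2, and 11 without all 3 KO libraries numbered 2.

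At 8 h 6 members were lower in KO and none was higher, where 0.746% of all genes were lower and 1.9% higher. At an unadjusted p under 0.05 edgeR and DESeq2 each gave 16 lower and 1 higher (Hk1 in edgeR), and after adjustment DESeq2 called none higher. The 6 were Hk2, Pfkl, Tpi1, Pgk1, Eno1 and Pdk1, and the median of all 37 was -0.18 on the log2 scale beside -0.001 over all genes. Pfkl was at 73.95 and 80.4 CPM at 0 h, 162 and 159 at 8 h and 218 and 222 at 24 h in WT. Pfkl in KO was at 81.2 and 74.9, 119 and 104, and 82.7 and 86.2 CPM at the same times. This liver-type phosphofructokinase, which catalyses the committed step of glycolysis, overlapped between genotypes at 0 h and was lower in KO at 8 and 24 h, with a log2 difference of -0.53 (SE 0.09, adjusted p = 0.00617) at 8 h. Pgk1, which makes ATP in the payoff phase, was at 115 and 116 CPM at 0 h, 437 and 425 at 8 h and 717 and 713 at 24 h in WT. Pgk1 in KO was at 124 and 111, 348 and 271, and 295 and 293 CPM at the same times. Pgk1 values overlapped at 0 h and separated at 8 h, with a log2 difference of -0.48 (SE 0.11, adjusted p = 0.0317). The difference of Tpi1 at 8 h was -0.97 (SE 0.20, adjusted p = 0.0354), that of Eno1 -0.60 (SE 0.13, adjusted p = 0.0215) and that of Hk2 -0.55 (SE 0.14, adjusted p = 0.045). Further members were close to the threshold, among them Slc16a1 (adjusted p = 0.0527), Pgam1 (0.0541) and Ldha (0.073).

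The 8 h count depended on single libraries. It was 0 in edgeR without either WT_8h library (13 lower without replicate 1 and 14 without replicate 2 at an unadjusted p under 0.05), 1 without KO_8h replicate 2, 2 without either WT_24h library, 10 without either KO_0h library, 12 without KO_8h replicate 1, and 15 without all 3 KO libraries numbered 1. Without KO_8h replicate 1, or without all 3 KO libraries numbered 1, the members called were not all lower, as Hk1 was higher in KO. The log2 difference of Hk1 at 8 h ran from 0.14 to 0.41 over the alternatives. In KO at 8 h the library numbered 2 was the lower of the pair for 5 of the 6 genes called, all but Pdk1. The DESeq2 Wald test called 13 members lower at 8 h, and edgeR with the replicate block called 10.

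**Figure D2:**
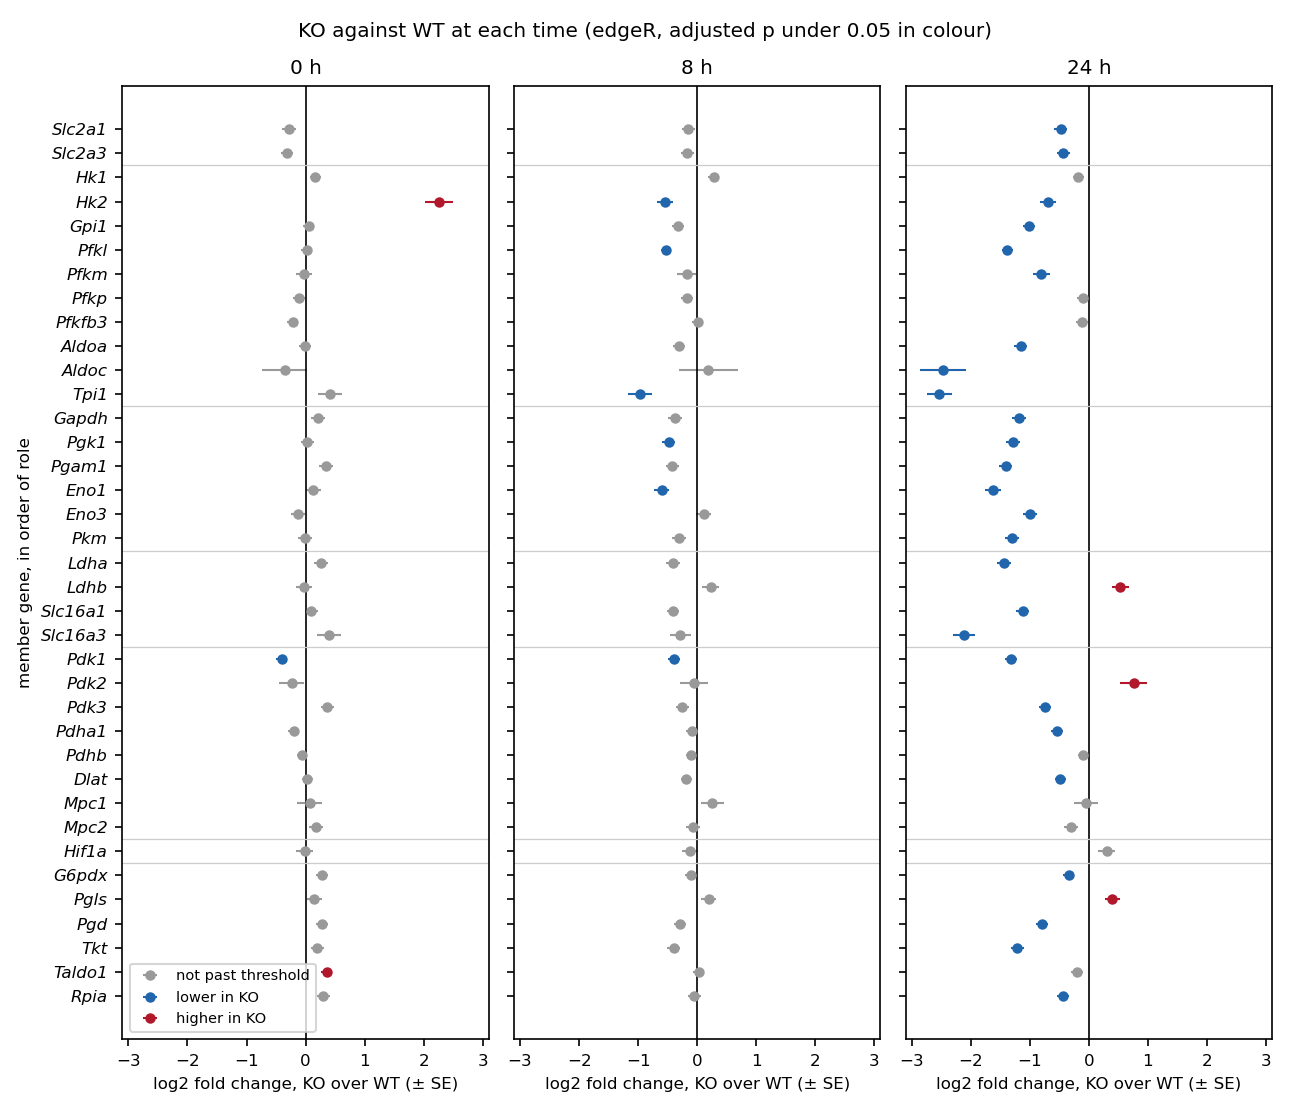
Log2 fold change of KO over WT (horizontal axis, with SE as bars) for each of the 37 genes at 0, 8 and 24 h, from the edgeR fit of all 12 libraries, with genes past an adjusted p of 0.05 in blue (lower in KO) or red (higher in KO). The points lie near 0 at 0 h except Hk2 at 2.26, shift to the left at 8 h, and at 24 h 26 of 37 are blue, with Tpi1 at -2.53 and Aldoc at -2.47 farthest left.

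At 24 h, 26 members were lower in KO and 3 higher, where 20.7% of all genes tested were lower and 17.9% higher. The members' median log2 difference was -0.75, beside 0.02 over all genes. The 3 called higher, Ldhb, Pdk2 and Pgls, each lost the call when single libraries of 24 h were left out, as given below. Every gene of the hexose phosphate, triose and lower glycolytic steps was lower in KO except Hk1, Pfkp and Pfkfb3, which did not pass the threshold. Without the 3 KO libraries numbered 2, 27 members were lower and 4 higher, and without the 3 numbered 1, 25 were lower and 3 higher. Both sets of KO libraries had basophil and mast cell sums above WT at 24 h (206 CPM in number 1 and 718 CPM in number 2, against 13.4 to 13.7 CPM). Of the 19 T cell identity genes, 7 were higher and 1 lower in KO at 24 h and 11 did not pass the threshold in either direction.

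Both glucose carriers were lower in KO at 24 h. Slc2a1 (GLUT1), the carrier that activated T cells are known to depend on, was at 41.8 and 42.5 CPM at 0 h, 84.6 and 83.3 at 8 h and 81.5 and 82.7 at 24 h in WT, against 35.7 and 33.5, 83.8 and 67.2, and 62.9 and 55.05 at the same times in KO. Slc2a3 (GLUT3), a high-affinity carrier, was at 58.4 and 56.9 CPM at 0 h, 31.3 and 27.8 at 8 h and 33.4 and 31.2 at 24 h in WT, against 46.7 and 45.98, 27.04 and 25.4, and 22.2 and 25.8 at the same times in KO. Slc2a1 overlapped between genotypes only at 8 h, and Slc2a3 was lower in KO in all libraries of each time. The 24 h differences were -0.48 (SE 0.11, adjusted p = 0.00311) for Slc2a1 and -0.43 (SE 0.11, adjusted p = 0.00648) for Slc2a3 on the log2 scale, among the smaller ones of the members called lower. The call of Slc2a1 was lost without KO_24h replicate 2 (-0.37), and that of Slc2a3 without WT_24h replicate 1 (-0.37) or KO_24h replicate 1 (-0.31).

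Of the 10 genes from hexokinase to triose phosphate isomerase, 7 were lower in KO at 24 h and none was higher, with a median log2 difference of -0.91. Tpi1 was at 44.5 and 44.2 CPM at 0 h, 109.8 and 115 at 8 h and 515 and 513 at 24 h in WT. Tpi1 in KO was at 65.9 and 52.2, 72.7 and 42.3, and 88.4 and 89.8 CPM at the same times. Its KO values of 24 h lay below both WT values of 8 h as well as of 24 h, and the KO mean of 24 h was 17.3% of the WT mean, a log2 difference of -2.53 (SE 0.21, adjusted p = 5.77e-06). Aldoa, the main aldolase, which splits fructose bisphosphate, was at 306 and 331 CPM at 0 h, 834 and 827 at 8 h and 888 and 912 at 24 h in WT. Aldoa in KO was at 334 and 298, 731 and 609.7, and 399.9 and 408 CPM at the same times. Its KO values of 24 h lay below all stimulated WT values, with a log2 difference of -1.16 (SE 0.11, adjusted p = 8.11e-07) at 24 h. Aldoc, an aldolase best known from brain, was at 1.48 and 2.35 CPM at 0 h, 0.386 and 0.645 at 8 h and 5.28 and 3.79 at 24 h in WT. Aldoc in KO was at 1.43 and 1.55, 0.395 and 0.773, and 0.817 and 0.809 CPM at the same times. At these low levels the error was wide, with a log2 difference of -2.47 (SE 0.39, adjusted p = 0.000161) at 24 h.

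Pfkl had the smallest p of this step group at 24 h, with a log2 difference of -1.38 (SE 0.09, adjusted p = 3.46e-08), and its KO level of 24 h was back near that of 0 h. Gpi1, which interconverts glucose and fructose 6-phosphate, was at 359 and 365 CPM at 0 h, 341 and 335 at 8 h and 442 and 453 at 24 h in WT. Gpi1 in KO was at 402 and 348, 286 and 253, and 212 and 231 CPM at the same times. It overlapped at 0 h and separated from 8 h on, and its 24 h difference was -1.02 (SE 0.10, adjusted p = 1.66e-06). Pfkm, the muscle-type phosphofructokinase, was at 31.1 and 32.7 CPM at 0 h, 7.99 and 6.21 at 8 h and 20.9 and 19.4 at 24 h in WT. Pfkm in KO was at 32.7 and 30.03, 6.15 and 6.403, and 10.5 and 12.6 CPM at the same times. Its genotypes separated only at 24 h, with a log2 difference of -0.80 (SE 0.14, adjusted p = 0.000494). A gene on the opposite strand, Senp1, overlaps Pfkm and holds 552% of its counts, and the labels do not say whether counting used strand.

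Hk2 was lower in KO at 24 h, with a log2 difference of -0.69 (SE 0.13, adjusted p = 0.00092), whereas Hk1, the hexokinase that most tissues express, did not pass the threshold at any time. Hk1 was at 177 and 187 CPM at 0 h, 87.4 and 91.01 at 8 h and 194 and 190.0 at 24 h in WT. Hk1 in KO was at 203 and 205, 98.5 and 118, and 172 and 167 CPM at the same times. Its KO values were above WT at 0 and 8 h and below WT at 24 h, with log2 differences of 0.17, 0.28 and -0.18 and adjusted p from 0.144 to 0.396. Pfkp, the platelet-type phosphofructokinase, was at 167 and 175 CPM at 0 h, 319 and 352 at 8 h and 307 and 286 at 24 h in WT. Pfkp in KO was at 154 and 164, 279.8 and 314, and 262 and 289.6 CPM at the same times. Pfkp overlapped between genotypes at 24 h, where its difference was -0.11 (SE 0.10, adjusted p = 0.427), and Pitrm1 on the opposite strand overlaps it with 51.6% of its counts. Pfkfb3 had a difference of -0.12 (SE 0.09, adjusted p = 0.359) at 24 h.

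All 6 genes of lower glycolysis, from glyceraldehyde phosphate to pyruvate, were lower in KO at 24 h, with log2 differences from -0.99 (Eno3) to -1.62 (Eno1) and a median of -1.29. Gapdh, the dehydrogenase often used as a reference gene, was at 439 and 400.3 CPM at 0 h, 1065 and 1045 at 8 h and 2124 and 2207 at 24 h in WT, against 527 and 447, 901 and 727, and 939.9 and 958 at the same times in KO. Pkm, the pyruvate kinase of T cells, was at 645 and 637 CPM at 0 h, 1419.8 and 1349.6 at 8 h and 2308 and 2322 at 24 h in WT, against 686 and 592, 1267 and 976, and 951 and 931 at the same times in KO. At 24 h both lay lower in KO than in WT at 8 h or 24 h, with differences of -1.19 (SE 0.12, adjusted p = 1.85e-06) for Gapdh and -1.299 (SE 0.12, adjusted p = 1.1e-06) for Pkm. Gapdh and Pkm were the members of this group with the highest level per length, Pkm at 0 and 8 h and Gapdh at 24 h. The near-identical copies of Gapdh, Pgk1, Pgam1, Ldha, Aldoa, Eno1 and Tpi1 held at most 0.456% of their member's counts.

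Pgam1, which shifts the phosphate of phosphoglycerate, had the smallest p of the group. It was at 23.1 and 21.9 CPM at 0 h, 127 and 115 at 8 h and 225 and 209 at 24 h in WT. Pgam1 in KO was at 29.7 and 27.4, 101 and 80.4, and 84.2 and 79.7 CPM at the same times. KO values were above WT at 0 h and below WT at 8 and 24 h, where the log2 difference reached -1.41 (SE 0.11, adjusted p = 1.54e-07). Eno1, the ubiquitous enolase, was at 558 and 570.4 CPM at 0 h, 407 and 399 at 8 h and 1183 and 1224 at 24 h in WT, against 658 and 579, 309 and 224, and 385 and 397 at the same times in KO. Eno3, the muscle enolase, was at 27.5 and 26.8 CPM at 0 h, 13.5 and 13.7 at 8 h and 36.96 and 34.6 at 24 h in WT, against 26.6 and 23.2, 14.1 and 15.1, and 19.1 and 16.9 at the same times in KO. Both enolases were lower in KO than in WT in all libraries of 24 h, while at 8 h Eno1 was lower and Eno3 slightly higher in KO. The 24 h difference of Pgk1 was -1.28 (SE 0.11, adjusted p = 4.61e-07) and that of Eno1 -1.62 (SE 0.13, adjusted p = 1.88e-07).

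**Figure D3:**
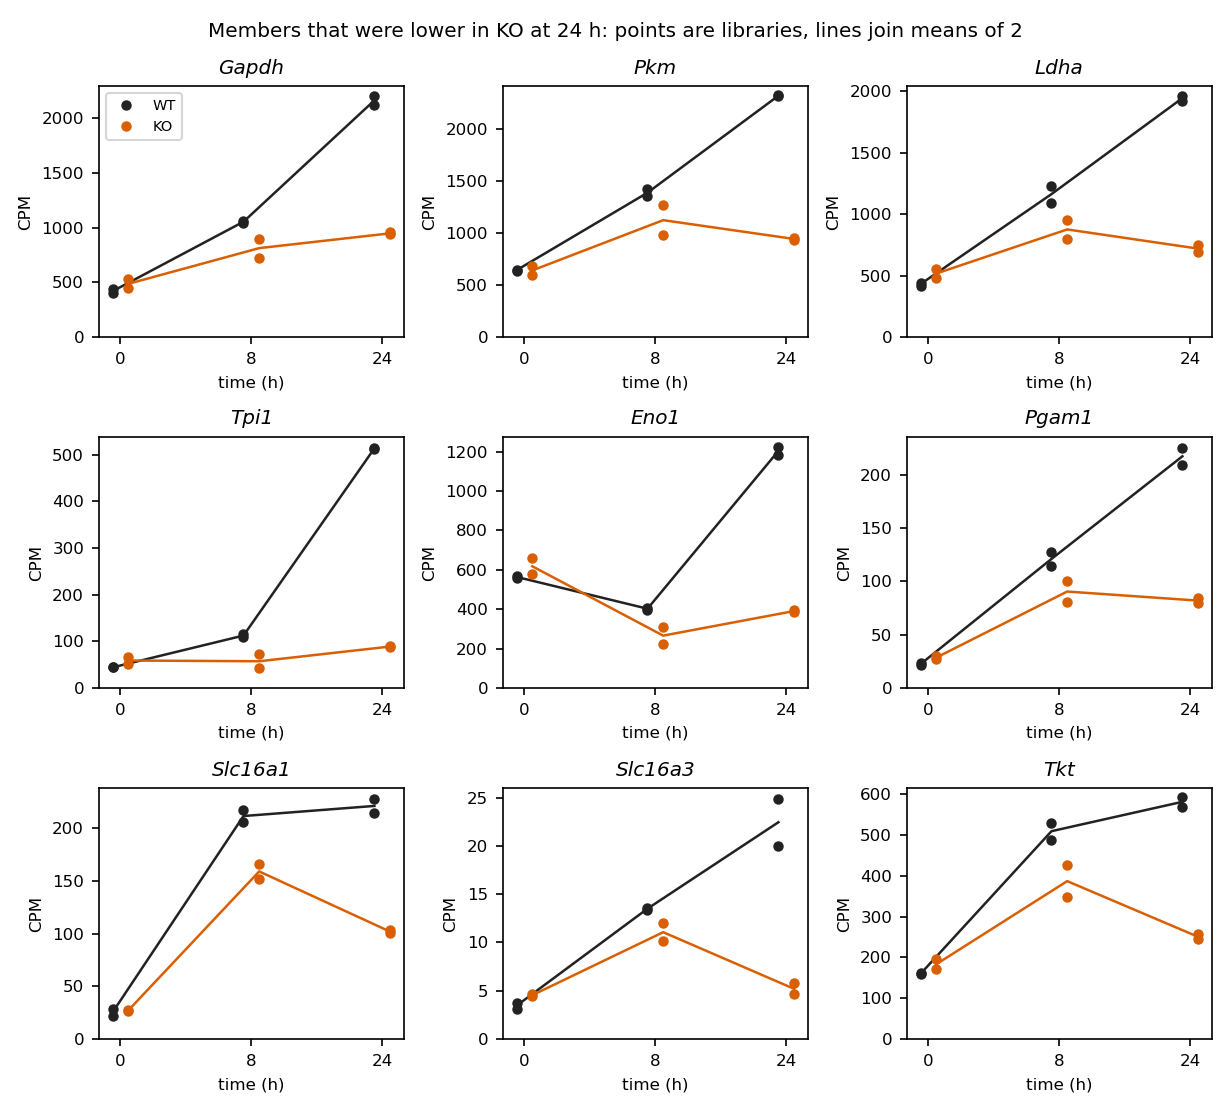
CPM (vertical axis, from 0) against time in h for 9 of the members lower in KO at 24 h, with each library as a point (WT black, KO orange, offset sideways for legibility) and lines through the means of 2. In each panel the WT points of 24 h lie above the KO points, and Ldha, for example, reaches 1924 and 1967 CPM in WT and 746 and 694 CPM in KO.

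Among the lactate genes 3 were lower in KO at 24 h and Ldhb was higher. Ldha, whose product favours the making of lactate, was at 419 and 444 CPM at 0 h, 1234 and 1094 at 8 h and 1924 and 1967 at 24 h in WT, against 553 and 481, 953 and 799.6, and 746 and 694 at the same times in KO. Ldhb, whose product favours the reverse reaction, was at 38.3 and 43.3 CPM at 0 h, 16.1 and 17.2 at 8 h and 31.4 and 38.9 at 24 h in WT, against 44.99 and 35.2, 19.99 and 18.9, and 47.6 and 54.2 at the same times in KO. Ldha was above WT in KO at 0 h and below it at 8 and 24 h, while Ldhb overlapped at 0 h and was above WT in KO at 8 and 24 h. The 24 h differences were -1.43 (SE 0.12, adjusted p = 2.25e-07) for Ldha and 0.54 (SE 0.14, adjusted p = 0.0065) for Ldhb. The call of Ldhb was lost without WT_24h replicate 1 (0.40) or without KO_24h replicate 2 (0.45).

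Slc16a1 was at 22.1 and 28.7 CPM at 0 h, 218 and 206 at 8 h and 228 and 215 at 24 h in WT, against 27.9 and 26.4, 166 and 152, and 100.4 and 104 at the same times in KO. Slc16a3 (MCT4), a low-affinity carrier associated with lactate export, was at 3.78 and 3.13 CPM at 0 h, 13.4 and 13.6 at 8 h and 19.99 and 24.9 at 24 h in WT, against 4.63 and 4.46, 11.97 and 10.2, and 4.63 and 5.77 at the same times in KO. Both KO values of Slc16a3 at 24 h were close to its level of 0 h, and both carriers were lower in KO than in WT in all libraries of 8 and 24 h. The 24 h differences were -1.12 (SE 0.11, adjusted p = 1.29e-06) for Slc16a1 and -2.11 (SE 0.18, adjusted p = 4.98e-07) for Slc16a3.

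Pyruvate entry was split: 4 of 8 members (Pdk1, Pdk3, Pdha1 and Dlat) were lower in KO at 24 h, Pdk2 was higher, and Pdhb, Mpc1 and Mpc2 did not pass the threshold. Pdk1 was the member of this group with the smallest p and, at 0 h, the highest level per length. Pdk3, another pyruvate dehydrogenase kinase, was at 14.2 and 14.7 CPM at 0 h, 28.6 and 30.4 at 8 h and 53.1 and 50.5 at 24 h in WT. Pdk3 in KO was at 18.9 and 18.3, 26.1 and 23.4, and 29.9 and 31.8 CPM at the same times. It was above WT in KO at 0 h and below it at 24 h, with a log2 difference of -0.75 (SE 0.10, adjusted p = 5.38e-05). Pdk2, the kinase regarded as the more widely expressed, was at 12.05 and 13.1 CPM at 0 h, 4.08 and 4.86 at 8 h and 3.29 and 5.57 at 24 h in WT. Pdk2 in KO was at 10.8 and 10.5, 4.23 and 4.36, and 8.28 and 6.74 CPM at the same times. Its KO values were below WT at 0 h, overlapped at 8 h and were above WT at 24 h, with a log2 difference of 0.76 (SE 0.23, adjusted p = 0.0176). That call was lost without WT_24h replicate 1 (0.44) or without KO_24h replicate 1 (0.62).

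Pdha1, the catalytic alpha subunit of pyruvate dehydrogenase, was at 127 and 149 CPM at 0 h, 105 and 106 at 8 h and 176 and 168 at 24 h in WT. Pdha1 in KO was at 119 and 119.7, 104 and 95, and 122 and 114 CPM at the same times. KO values were below WT at each time, but the difference passed the threshold only at 24 h (-0.54 (SE 0.09, adjusted p = 0.000384)). Dlat, the acetyltransferase core of the same complex, differed by -0.48 (SE 0.09, adjusted p = 0.000454) at 24 h, and the beta subunit gene Pdhb by -0.10 (SE 0.08, adjusted p = 0.373). The mitochondrial pyruvate carrier genes Mpc1 and Mpc2 differed by -0.04 (adjusted p = 0.9) and -0.30 (adjusted p = 0.0619). Mpc1 stood at 5.598 to 11.6 CPM over all libraries and has a copy, Mpc1-ps, with 30.5% of its counts, so its values are uncertain.

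Hif1a, which encodes the oxygen-regulated subunit of HIF-1 and is controlled largely through protein stability, was at 76.7 and 75.7 CPM at 0 h, 291 and 294 at 8 h and 151 and 166 at 24 h in WT. Hif1a in KO was at 60.1 and 91.05, 263 and 274, and 203 and 188 CPM at the same times. Its level was highest at 8 h in both genotypes, and KO lay above WT in both libraries of 24 h. The differences did not pass the threshold at any time in the main fit, with log2 values of -0.01, -0.13 and 0.30 at 0, 8 and 24 h (adjusted p = 0.109 at 24 h). The 24 h difference was called under 5 of 21 alternatives, with values from 0.25 to 0.38 over all of them. The 0 h difference was called under 1, with values from -0.35 to 0.29 over all.

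In the pentose phosphate pathway 4 of 6 members were lower in KO at 24 h (G6pdx, Pgd, Tkt and Rpia), Pgls was higher and Taldo1 did not pass. Tkt, the transketolase of the non-oxidative branch, was at 161 and 159 CPM at 0 h, 530.2 and 489 at 8 h and 594 and 569.5 at 24 h in WT. Tkt in KO was at 196 and 171, 426 and 348, and 245 and 257 CPM at the same times. The KO libraries of 24 h lay below all stimulated WT libraries, and the difference was -1.21 (SE 0.11, adjusted p = 7.01e-07), the smallest p of the pathway. Pgd, the phosphogluconate dehydrogenase that makes NADPH, was at 74.1 and 83.5 CPM at 0 h, 166 and 166 at 8 h and 195 and 196 at 24 h in WT. Pgd in KO was at 104 and 86.9, 147 and 125, and 112 and 114 CPM at the same times. KO values were above WT at 0 h and below at 8 and 24 h, with a 24 h difference of -0.79 (SE 0.11, adjusted p = 3.36e-05). G6pdx, which catalyses the entry step, differed by -0.34 (SE 0.09, adjusted p = 0.0102), and Rpia, which makes ribose phosphate, by -0.44 (SE 0.11, adjusted p = 0.00472).

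Pgls, the lactonase between the 2 dehydrogenases, was at 50.1 and 55.6 CPM at 0 h, 53.1 and 45.7 at 8 h and 63.5 and 67.9 at 24 h in WT. Pgls in KO was at 67.4 and 49.5, 56.4 and 56.5, and 86.8 and 85.6 CPM at the same times. Its KO values overlapped WT at 0 h and were above it at 8 and 24 h, and the 24 h difference was 0.39 (SE 0.13, adjusted p = 0.0245). That call was lost when any 1 of the 4 libraries of 24 h was left out, with values from 0.36 to 0.45. Of the counted neighbours, Fam129c overlaps Pgls on the same strand with 10.1% of its counts, and Ikbkg overlaps G6pdx on the opposite strand with 92.5%. The calls of G6pdx (without WT_24h replicate 2, -0.27, or KO_24h replicate 1, -0.29) and of Rpia (without WT_24h replicate 1, -0.35, or KO_24h replicate 1, -0.35) also rested on single libraries.

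Whether the genotype difference itself changed with time was tested as an interaction. From 8 to 24 h it moved downward for 20 of the 37 members and upward for none (at an unadjusted p under 0.05, 1 in edgeR, Pdk2, and 2 with DESeq2, which called none after adjustment), against 8.96% and 5.49% of all genes tested, with a median of -0.49 for the members and 0.004 for all genes. This test uses the same libraries as the 24 h comparison and is not separate evidence. The 20 hold all 6 genes of lower glycolysis, 6 of the 10 upper genes (Hk1, Gpi1, Pfkl, Aldoa, Aldoc and Tpi1), Ldha, both lactate carriers, Pdk1, Pdk3, Pdha1, Pgd and Tkt. Slc16a3 had the smallest adjusted p among them, with a change of -1.82 (SE 0.25, adjusted p = 0.000188), and Pdk1 followed with -0.93 (SE 0.14, adjusted p = 0.000358). Ldhb, Pdk2 and Pgls did not pass, with changes of 0.31, 0.82 and 0.20. Nor did Hk2, whose change from 8 to 24 h was -0.14 (SE 0.19, adjusted p = 0.687). A fit of the compared groups alone called 1 member upward after adjustment and 20 downward. Some fits with libraries left out also called a member upward.

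From 0 to 8 h the genotype difference moved downward for 2 members, Hk2 and Pgam1, and upward for none (0 at an unadjusted p under 0.05 in edgeR, and 0 with DESeq2), against 0.733% of all genes downward and 0.261% upward. The change was -2.81 (SE 0.28, adjusted p = 0.000315) for Hk2, which had been higher in KO at 0 h, and -0.76 (SE 0.16, adjusted p = 0.0352) for Pgam1. The median of all members was -0.30 beside 0.03 over all genes. The count was 1 when any single WT library was left out, without KO_0h replicate 1 or without either KO_24h library, 8 without KO_0h replicate 2 and 10 without KO_8h replicate 1, and DESeq2 gave 10.

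**Figure D4:**
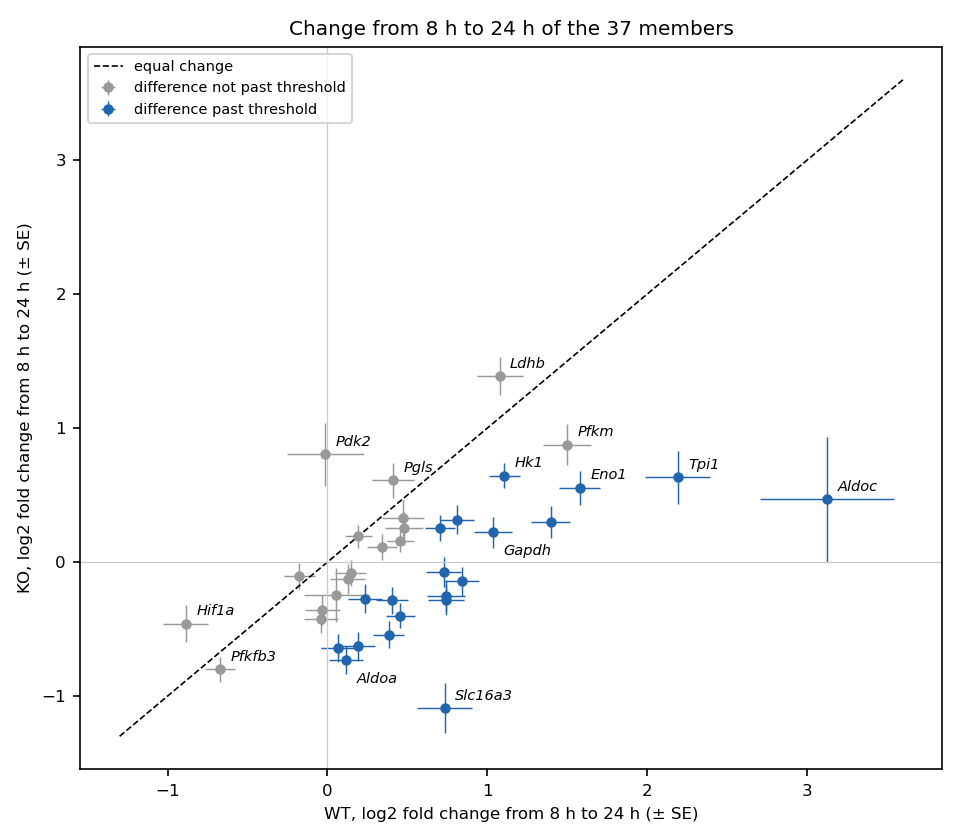
Log2 fold change from 8 to 24 h in WT (horizontal) and in KO (vertical) for the 37 genes, with SE as bars and a dashed line where both genotypes change equally. The 20 genes in blue, whose changes differ past the threshold, all lie below the line, and Ldhb, Pdk2 and Pgls lie above it.

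For steps that alternative genes can serve, the share of each gene in the summed CPM per kb of exon is given as a value with no test. The length is that of all annotated exons of a gene, not of the transcripts in use, so the order of genes depends on it. Hk2 made up 1.09 and 0.914% of Hk1 plus Hk2 in WT at 0 h and 4.45 and 3.84% in KO, and at 24 h 54.5 and 51.6% in WT and 46.1 and 42.3% in KO. At both times the genotypes did not overlap, with the KO share above WT at 0 h and below it at 24 h. Ldhb made up 16.2 and 17.1% of lactate dehydrogenase in WT and 14.6 and 13.4% in KO at 0 h, 2.68 and 3.202% and 4.23 and 4.74% at 8 h, and 3.32 and 3.999% in WT and 11.8 and 14.1% in KO at 24 h. The share in KO at 24 h was thus close to that of 0 h, and the ratio of Ldha to Ldhb per length at 24 h was 29.1 and 24.0 in WT and 7.45 and 6.07 in KO.

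Among the phosphofructokinases, Pfkl made up 52.9 and 55.1% in WT and 35.3 and 33.7% in KO at 24 h, and Pfkp 37.1 and 35.3% and 55.8 and 56.4%. In CPM, Pfkp (13401 bases of exon) was above Pfkl (6675 bases) in WT at 24 h, with means of 297 and 220. At 0 h the Pfkl shares were 33.7 and 34.5% in WT and 36.4 and 34.6% in KO, the KO values just above WT. Of the kinases of pyruvate dehydrogenase, Pdk1 made up 85.8 and 85.8% in WT and 79.9 and 80.9% in KO at 0 h, and 34.5 and 34.4% and 22.7 and 25.2% at 24 h. By this measure Pdk3 was the larger part at 24 h in both genotypes, with 62.3 and 60.2% in WT and 63.2 and 63.8% in KO. In CPM, Pdk1 (7779 bases of exon) was above Pdk3 (2561 bases) at 24 h. The means were 88.5 and 51.8 in WT and 35.4 and 30.9 in KO. Slc2a1 made up 83.4 and 84.5% of the 2 glucose carriers in WT and 85.4 and 81.5% in KO at 24 h, and the genotypes overlapped. Slc16a3 made up 6.799 and 8.81% of the 2 lactate carriers in WT and 3.696 and 4.43% in KO at 24 h. Aldoa made up from 99.37 to 99.96% of the aldolases, and Eno1 from 82.7 to 91.95% of the 2 enolases, over all libraries.

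**Figure D5:**
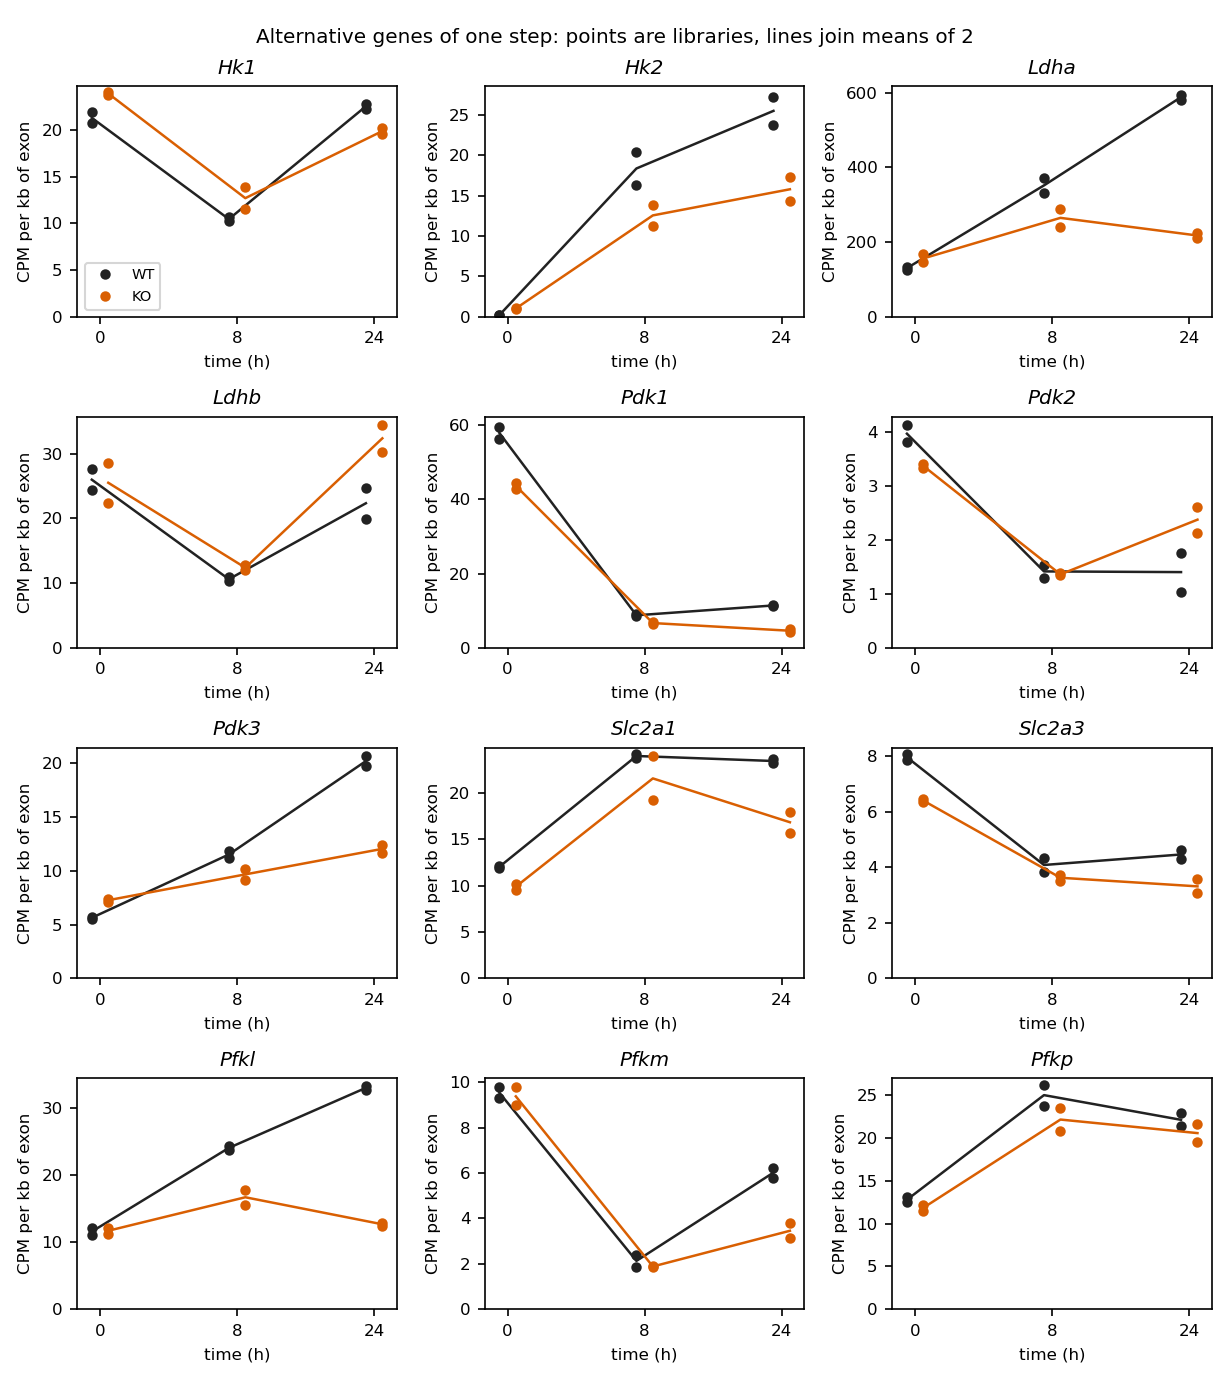
CPM per kb of exon (vertical axis, from 0) against time in h for 12 members that are alternative genes of 5 steps, with each library as a point (WT black, KO orange) and lines through the means of 2. At 24 h the KO points lie below WT for Ldha, Hk2, Pdk1, Pdk3 and Pfkl, above WT for Ldhb and Pdk2, and mixed with WT for Pfkp.

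Other genes of the same pathways, 105 fixed by name in 5 lists, were also counted, and 81 passed the filter on low counts. At 24 h 30 of the 81 were lower and 18 higher in KO, beside 20.7% and 17.9% of all genes tested, with a median log2 difference of -0.21. Lower genes by smallest p were Pygb (glycogen phosphorylase) at -1.35, Uap1 (which makes UDP-N-acetylglucosamine) at -1.25, Pgm1 (phosphoglucomutase) at -1.23, Pcx (pyruvate carboxylase) at -2.63 and Mdh1 (cytosolic malate dehydrogenase) at -0.92. Pcx was at 3.72 and 3.55 CPM at 0 h, 1.49 and 1.64 at 8 h and 10.9 and 12.9 at 24 h in WT. Pcx in KO was at 4.35 and 4.06, 1.47 and 1.27, and 1.69 and 2.16 CPM at the same times. Its WT libraries of 24 h held the highest values of all 12, and the KO libraries of 24 h stayed below WT of 0 h. In the list of sugar branch genes 15 of 27 tested were lower and 2 higher, and in the list of monocarboxylate and pyruvate genes 7 of 14 were lower and 1 higher.

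Higher genes by smallest p at 24 h were Eno2, the neuronal enolase, at 1.78 (SE 0.23, adjusted p = 2.22e-05), Hk3, a hexokinase of myeloid cells, at 2.65 (SE 0.36, adjusted p = 3.84e-05), Slc2a9, a urate and hexose carrier, at 1.05, Hif1an, an asparagine hydroxylase that acts on HIF proteins, at 0.55, and Arnt, the partner of Hif1a, at 0.52. Eno2 was at 1.77 and 1.505 CPM at 0 h, 4.52 and 5.33 at 8 h and 5.98 and 5.36 at 24 h in WT. Eno2 in KO was at 2.64 and 1.805, 6.27 and 8.61, and 22.01 and 17.04 CPM at the same times. The WT and KO libraries of Eno2 overlapped at no time, with KO above WT, whereas Eno1 and Eno3 were below WT in KO at 24 h. In the list of regulators and HIF targets 9 of 23 tested were higher and 4 lower, and in the list of other carriers and isozymes 5 of 14 were higher and 4 lower. Myc, of the regulator list, was at 101 and 99.3 CPM in WT and 89.7 and 77.6 CPM in KO at 0 h. At 8 h Myc was at 914 and 856 CPM in WT and 826 and 701 CPM in KO. At 24 h Myc was at 482 and 475 CPM in WT and 627 and 568 CPM in KO. The KO values of Myc thus lay below WT at 0 and 8 h and above WT at 24 h. The part of Myc in the levels of the members was not tested.

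At 0 h, where 4.63% of all genes tested were higher and 1.07% lower, 3 of the 81 were higher in KO (Hk3 at 2.21, Pklr, the liver and red cell pyruvate kinase, at 2.496, and Pygl, the liver glycogen phosphorylase, at 3.76) and 2 were lower (the glycerol phosphate dehydrogenase Gpd2 at -0.75 and Epas1, the HIF-2 alpha gene, at -0.76). Hk3 was at 3.603 and 2.23 CPM at 0 h, 0.937 and 1.05 at 8 h and 0.808 and 0.974 at 24 h in WT, against 14.4 and 12.6, 3.39 and 2.48, and 3.92 and 7.33 at the same times in KO. Pygl was at 0.945 and 0.301 CPM at 0 h, 0.276 and 0.176 at 8 h and 0.0539 and 0.0541 at 24 h in WT, against 7.16 and 9.98, 0.565 and 2.87, and 1.69 and 7.22 at the same times in KO. Both were above WT in all KO libraries of each time, at low levels. The neutrophil, eosinophil and basophil marker sums, not all of them printed here, were also higher in KO at each time. The part of such cells in the levels of Hk3 and Pygl was not tested. At 8 h, where these shares were 1.9% and 0.746%, 3 of the 81 were higher (Slc2a6 at 1.59, Hk3 at 1.55 and Slc2a9 at 0.69) and the pyruvate dehydrogenase phosphatase gene Pdp2 was lower at -0.56.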

How the data were processed

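RNA was measured in 12 libraries, 6 of WT and 6 of Ddx55-KO naive CD4+ T cells, depleted of ribosomal RNA and sequenced as stranded pairs, per the labels' protocols. The deposited gene table holds whole-number counts per Ensembl gene, not normalized. Listed in the submitters' processing notes are STAR 2.7.1a, fastp 0.12.4 and build mm10. How genes were counted, and with which annotation and strand setting, is not stated there. The deposited table of repeat elements was not used here.

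The 37 members and all gene lists were chosen with earlier results of these data known. Rows were matched to symbols with the GENCODE M21 annotation of GRCm38, and of 2 rows named Aldoa the larger was used (the other had at most 18 counts in a library). Genes were kept by filterByExpr with the 6 groups (minimum count 10, minimum total 15), leaving 15679 of 54232. All 12 libraries went into a robust quasi-likelihood fit with TMM factors (R 4.3.3, edgeR 4.0.16), a mean for each group and 6 residual degrees of freedom. The 9 contrasts compare the genotypes at each time, successive times in each genotype, and the genotype difference between successive times. Tests were two-sided, adjusted by Benjamini-Hochberg over all genes tested, with a threshold of 0.05; the SE of a log2 fold change is its size over the square root of the F statistic. CPM values use TMM-scaled library sizes, and levels compared between genes are per kb of exon. Depth was 16810375 to 19126498 gene counts per library, so counting error matters only for low genes such as Aldoc.

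Values of every library are given for members with the smallest p or the highest level per length in their role, for those called at 0 or 8 h or in a change of the KO effect, for those higher in KO at 24 h, and for sets of alternative genes. Other pathway genes are named by the smallest p, up to 5 per direction. Promoter windows came from RefSeq (GRCm38.p6). Alternatives tried were RLE factors, DESeq2 1.42.0, 2 other filters, fits of the compared groups alone, the replicate block, counts of copies added, and libraries left out.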

Additional observations from a re-analysis of the deposited data

Results flagged for a closer look

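The genotype difference of 22 member and interval pairs changed with time past the threshold of the interaction test itself (edgeR, adjusted p under 0.05), and the values are log2 changes of the KO effect with SE. From 0 to 8 h these were Hk2 at -2.81 (SE 0.28) and Pgam1 at -0.76 (SE 0.16). From 8 to 24 h the genes of the hexose and triose steps were Hk1 at -0.46 (SE 0.13), Gpi1 at -0.69 (SE 0.14), Pfkl at -0.86 (SE 0.13), Aldoa at -0.85 (SE 0.15), Aldoc at -2.66 (SE 0.64) and Tpi1 at -1.56 (SE 0.28). Those of lower glycolysis were Gapdh at -0.82 (SE 0.17), Pgk1 at -0.80 (SE 0.15), Pgam1 at -0.99 (SE 0.15), Eno1 at -1.02 (SE 0.18), Eno3 at -1.10 (SE 0.17) and Pkm at -0.99 (SE 0.17). Those of lactate were Ldha at -1.02 (SE 0.16), Slc16a1 at -0.71 (SE 0.15) and Slc16a3 at -1.82 (SE 0.25). Those of pyruvate entry were Pdk1 at -0.93 (SE 0.14), Pdk3 at -0.49 (SE 0.15) and Pdha1 at -0.45 (SE 0.13), and those of the pentose phosphate pathway Pgd at -0.51 (SE 0.15) and Tkt at -0.82 (SE 0.15). Hk1 is the member among these whose genotype difference did not itself pass the threshold at 0, 8 or 24 h.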

How the results depend on the processing

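Each count of members past the threshold was computed under 21 alternatives. The counts for KO against WT at 24 h (29), WT at 8 h against 0 h (32), WT at 24 h against 8 h (25), KO at 8 h against 0 h (33), KO at 24 h against 8 h (19) and the change of the KO effect from 8 to 24 h (20) stayed within 1.5 times of these values; leaving out 1 library gave 24 to 31, 30 to 32, 22 to 27, 32 to 33, 13 to 22 and 15 to 21. The count of 3 at 0 h was 1 with the compared groups alone and 11 without the 3 KO libraries numbered 2, and 1 to 5 leaving out 1 library. The count of 6 at 8 h was 13 with DESeq2, 11 with no filter, 1 with the compared groups alone, 10 with the replicate block and 15 without the 3 KO libraries numbered 1, and 0 to 12 leaving out 1 library. The count of 2 for the change from 0 to 8 h was 10 with DESeq2, 10 with no filter, 1 with the compared groups alone, 6 with the replicate block, 10 and 8 without the KO libraries numbered 1 or 2, and 1 to 10 leaving out 1 library. The cause of these moves was not tested. Of 2331 values of single members for KO against WT, 2110 kept sign and side of the threshold, 72 lost the call, 71 gained it, 78 values that were not called changed sign, and no called value changed sign. The labels do not say what a shared replicate number stands for. Over 15 pairs of groups the correlation of replicate differences ran from -0.0997 to 0.288 and passed 0.1 in 8, among them all 3 pairs of KO times (0.288, 0.222 and 0.111), where the data hint at a link. With the replicate block the other counts were 4 at 0 h, 29 at 24 h, 32, 25, 33 and 22 for the time courses in the order above, and 20 for the change from 8 to 24 h. That block is a shift between replicate numbers shared by both genotypes, so it does not model a link within KO alone. The main fit treats all libraries as separate, and counts under a KO-only link were not computed. Where 1 library of a group was left out, the lone library was assumed to vary like the other groups. Depth limits Aldoc, which had under 6 CPM in every library, Mpc1, and other members where they were low, such as Hk2 in WT at 0 h (1.36 and 1.204 CPM).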
